A study of Homo sapiens with 14 samples.

Results

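The MDA-MB-231 line, derived from a human breast cancer, is of mesenchymal type. The cells compared here carried a doxycycline-inducible non-silencing shRNA (shNSi) in a stable line and had been kept in doxycycline (1 µg/mL, 6 days) ahead of gradient fractionation, which also holds for the cells of the series that carried an shRNA against DAP5 (shDAP5). The mRNAs of the moderate polysome pool of the shNSi cells were compared with those of their light polysome pool in 2 cultures, paired by culture, which makes 4 of the 14 libraries of the series. Genes were chosen by counts only, as those with at least 10 counts in 2 or more of these 4 libraries, and 15098 of 58434 gene symbols met this, whereas 32075 symbols had no read in the 4 libraries. The shNSi cells are the control of the study, and each of their pools came from 1 stable line. Light polysomes are the pool that the study calls poorly translated and heavy polysomes the one it calls well translated. The fractions that made up the moderate pool are not given in the sources used here.

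The 4 libraries held 25899838 to 30795910 counts. VIM, CD44, SPARC, AXL and MSN, which mark mesenchymal breast cancer cells, were well above background, with VIM at 31925 to 140517 counts per library. CDH1, the epithelial cadherin, had 0 to 2 counts, PTPRC, the pan-leukocyte marker, had 0 to 1, and PGR, CD3E and ADIPOQ had none. The epithelial keratins KRT8 and KRT18 were well expressed, at 4777 to 19363 and 5009 to 22522 counts, and EPCAM had 86 to 169. Of the other luminal markers, GATA3 had 269 to 376 counts and ESR1 4 to 16. Of the fibroblast markers, COL1A1 had 235 to 425 counts, whereas COL1A2, DCN and LUM had 1 to 8, 0 to 2 and 4 to 17. The pools of the 2 cultures were shifted against each other. The light pool of culture 2 was closer in ranks to the moderate pool of culture 1 (Spearman's rho of 0.970 across 15098 genes, which are not independent replicates) than to the light pool of culture 1 (0.968), and the most distant pair was the light pool of culture 1 and the moderate pool of culture 2 (0.905). Every level below is therefore given for each culture. Deviations of a gene from the pool means ran in parallel in the light and moderate pools of a culture (r = 0.647 across genes), and the test compared the pools within cultures.

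In a sucrose gradient mRNAs sediment by the number of ribosomes they carry. The number depends on how often ribosomes start on an mRNA and also on the length of its coding sequence, since a short coding sequence has room for few ribosomes however well it is translated. Sequencing of a pool gives the share of each mRNA within that pool, so a higher value in the moderate pool means a larger share of its reads and not a larger absolute amount. Noncoding RNAs that reach the cytoplasm, and mRNAs whose main coding sequence is reached rarely because ribosomes first meet upstream open reading frames, are known to sediment with few ribosomes. Differences below are log2(moderate / light), fitted over both cultures, and levels are CPM, the count of a gene relative to the TMM-scaled library size over these 4 libraries, unless stated.

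Of the 15098 genes, 4985 (33.0%) differed between the pools at an adjusted p under 0.05 by the quasi-likelihood test of edgeR. A larger share in the moderate pool was found for 2227 genes (14.8%) and a smaller share for 2758 (18.3%). Of these genes, 4974 had the same sign in both cultures, against 11240 (74.4%) of all genes tested. Differences above 1 on the log2 scale were found for 1056 genes (6.99%) and differences below -1 for 2233 (14.8%), within a range from -4.17 to 2.72 and around a median of 0.01. The balance between both directions varied with the settings. With TMM 44.7% of the calls were higher in the moderate pool, and with library size alone, which moved the median of all genes to -0.11, 32.5% were. The share was 48.4% by limma on quantile-normalized values and 51.1% by DESeq2 with its size factors, and both of these changed the test as well. Without a filter on low counts it was 50.6%. Higher calls were the majority only by DESeq2 and without the filter, and the cause of this was not tested. Without the term for culture, edgeR called 0 genes, the smallest adjusted p was 0.297 and 2338 genes were under an unadjusted p of 0.05. The calls thus rest on the pairing by culture and on a spread that was estimated with 1 residual degree of freedom per gene and shared across genes.

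**Figure D1:**
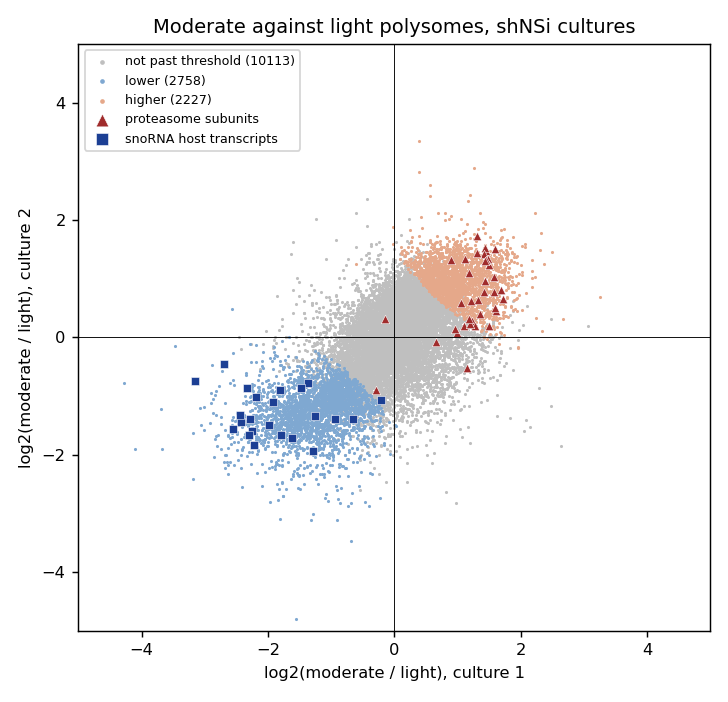
Difference between the moderate and the light polysome pool, as log2(moderate / light), in culture 1 (horizontal) and culture 2 (vertical), with 1 point for each of the 15098 genes tested. Genes that passed the threshold lie mostly in the upper right (2227 higher) or the lower left (2758 lower) quadrant, the proteasome subunits lie mostly in the first and the snoRNA host transcripts in the second.

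Among the genes called with a mean of at least 10 CPM, those with the lowest differences mostly encode very small proteins, and 3 of them show how short these coding sequences are. Each sequence runs from the start codon to the stop codon, both in capitals, and was read from GENCODE v29 on GRCh38, in which all of it is exonic coding sequence. RPL41, a protein of the large ribosomal subunit, has 25 codons over 3 coding exons at chr12:56116788-56117524 on the plus strand. OST4, a subunit of the oligosaccharyltransferase that attaches N-glycans, has 37 codons in 1 exon at chr2:27071349-27071462 on the minus strand. TMSB10, the actin-binding thymosin beta 10, has 44 codons over 2 coding exons at chr2:84906018-84906423 on the plus strand.
RPL41: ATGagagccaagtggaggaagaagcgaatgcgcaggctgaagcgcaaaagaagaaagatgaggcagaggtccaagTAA
OST4: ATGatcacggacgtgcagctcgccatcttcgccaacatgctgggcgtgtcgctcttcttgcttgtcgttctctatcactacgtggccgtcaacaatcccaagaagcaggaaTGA
TMSB10: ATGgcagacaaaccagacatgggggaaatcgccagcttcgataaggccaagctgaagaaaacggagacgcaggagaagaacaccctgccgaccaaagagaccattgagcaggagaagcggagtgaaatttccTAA

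RPL41 had 1586 and 873 CPM in the light pools of cultures 1 and 2 and 248 and 291 CPM in the moderate pools. Its share was 4.38-fold lower in the moderate pool (log2 difference of -2.13 ± 0.40 SE, adjusted p = 4.74e-06). OST4 had 285 and 128 CPM in light and 49.2 and 37.1 CPM in moderate polysomes, a 4.47-fold lower share (log2 difference of -2.16 ± 0.31 SE, adjusted p = 5.55e-09). TMSB10 had 4498 and 1328 CPM in light and 723 and 420 CPM in moderate polysomes, and its share was 4.43-fold lower (-2.15 ± 0.42 SE, adjusted p = 1.43e-05). For all 3 mRNAs both light libraries lay above both moderate libraries, and light polysomes of culture 1 held the highest level. With an offset for coding length, which sets a gene against mRNAs of its own length, RPL41 was higher in the moderate pool (0.69, adjusted p = 0.0253), and OST4 (0.18, adjusted p = 0.579) and TMSB10 (-0.010, adjusted p = 0.981) did not pass the threshold.

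Among genes that passed the test, averaged 10 CPM or more and had the same sign in both cultures, the 12 with the lowest differences ranged from -2.24 for COPS9, a small subunit of the COP9 signalosome, to -2.07 for MT2A. COPS9, with 57 codons, had 119 and 42.8 CPM in light and 17.0 and 13.4 CPM in moderate polysomes (adjusted p = 9.93e-10). The metallothioneins MT1E, MT1X and MT2A, small metal-binding proteins of 61 codons each, had differences of -2.21, -2.14 and -2.07. MT2A, the most abundant of them, had 4066 and 1264 CPM in light and 720 and 406 CPM in moderate polysomes. These genes are near-identical copies of each other, and how reads between such copies were assigned is not given in the sources used here. The others were C4orf48 (-2.21), COMMD6 (-2.15), COA3 (-2.13), an assembly factor of cytochrome c oxidase, TMA7 (-2.11), and LINC00116 (-2.11), which is annotated with a coding sequence of 414 nt. The longest coding sequence among the 12 was that of LINC00116. With the offset for coding length COPS9, MT1E, MT1X, MT2A and TMA7 did not pass the threshold (adjusted p = 0.154, 0.153, 0.178, 0.344 and 0.193).

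The 12 genes with the highest differences by the same rule were led by CPE, carboxypeptidase E, with 4.35 and 8.32 CPM in light and 14.1 and 29.8 CPM in moderate polysomes. Its share was 3.42-fold higher in the moderate pool (log2 difference of 1.77 ± 0.29 SE, adjusted p = 1.23e-07). PDHA1, the alpha subunit of pyruvate dehydrogenase, followed with 21.8 and 58.2 CPM in light and 75.4 and 183 CPM in moderate polysomes (1.72 ± 0.30 SE, adjusted p = 6.81e-07). In both genes the moderate pool exceeded the light pool of every culture. LDHB, a subunit of lactate dehydrogenase, had 330 and 810 CPM in light and 1174 and 2332 CPM in moderate polysomes (1.68). HNRNPA2B1, an RNA-binding protein, had 301 and 635 CPM in light and 794 and 2319 CPM in moderate polysomes (1.63, the lowest of the 12). The others were MICU2 (1.71), a regulator of mitochondrial calcium uptake, the dipeptidase PEPD (1.68), the MHC class II chain HLA-DRA (1.68), the purine synthesis enzyme PAICS (1.66), ANXA5 (1.65), ADH5 (1.65), NUP43 (1.64), a nuclear pore protein, and FAM98B (1.64). HLA-DRA differed more between the cultures than between the pools, with 1.35 and 4.82 CPM in culture 1 and 11.4 and 33.6 CPM in culture 2. Coding lengths of these 12 ran from 762 nt for HLA-DRA to 1479 nt for PEPD, a class of mRNAs of medium length.

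**Figure D2:**
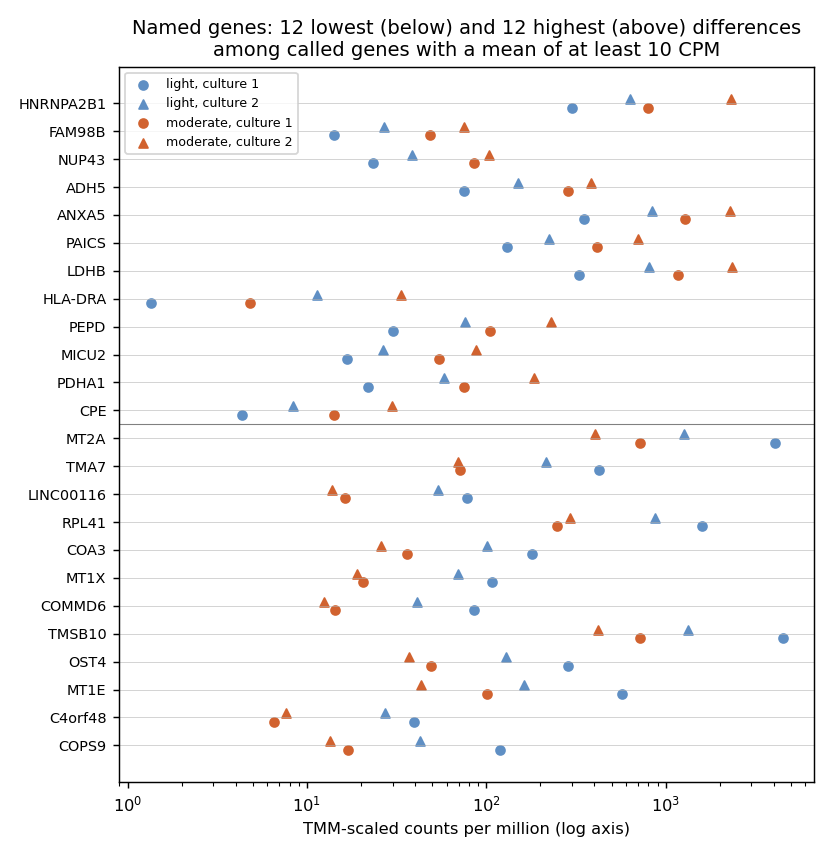
Level of the 24 named genes in the 4 libraries, as TMM-scaled CPM on a log axis, with light polysomes in blue, moderate polysomes in orange, circles for culture 1 and triangles for culture 2. Within each culture the moderate value lies below the light value in the 12 lower genes and above it in the 12 upper genes, and for HLA-DRA the moderate pool of culture 1 lies below the light pool of culture 2.

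The difference followed coding length, though not in a straight line. A coding length from GENCODE v29 was available for 12544 of the genes tested, with a median of 1398 nt, and lengths here leave out the stop codon. Genes higher in the moderate pool had a median of 1323 nt, with a middle 50% from 1047 to 1710 nt. Genes lower in the moderate pool had a median of 573 nt, with a middle 50% from 375 to 1087.5 nt. The median difference was -1.51 for the 249 genes of at most 300 nt, of which 90.4% were lower and 0.402% higher. It rose to -1.05 for 301 to 450 nt, to -0.48 for 451 to 600 nt and to 0.00 for 601 to 900 nt. It was highest, at 0.41, for the 1649 genes of 1201 to 1500 nt, of which 30.7% were higher and 6.43% lower, and it fell again to 0.19 for 2001 to 3000 nt and 0.06 for the 342 genes over 6000 nt. Across all 12544 genes Spearman's rho between the difference and coding length was 0.226. It was 0.553 below 1200 nt and -0.198 from 1200 nt upward, so that no single slope describes the course.

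The 2 cultures shared the rise, at different lengths, and differed in what followed. The largest gap between them was at 601 to 900 nt, with a median of 0.32 in culture 1 and -0.31 in culture 2. In culture 1 the median was highest at 901 to 1200 nt, with 0.49, and fell to -0.22 for genes over 6000 nt. In culture 2 it was highest at 1501 to 2000 nt, with 0.44, and was still 0.33 for genes over 6000 nt. The rho over all lengths was 0.009 in culture 1 and 0.412 in culture 2. The direction of the median thus depended on the culture at 601 to 900 nt and above 3000 nt, while mRNAs of up to 600 nt were lower in the moderate pool of both. The untranslated part of the mRNA had no such course: for coding lengths of 901 to 2000 nt the median difference was 0.35, 0.33 and 0.38 in the lowest, middle and highest tertile of untranslated length.

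**Figure D3:**
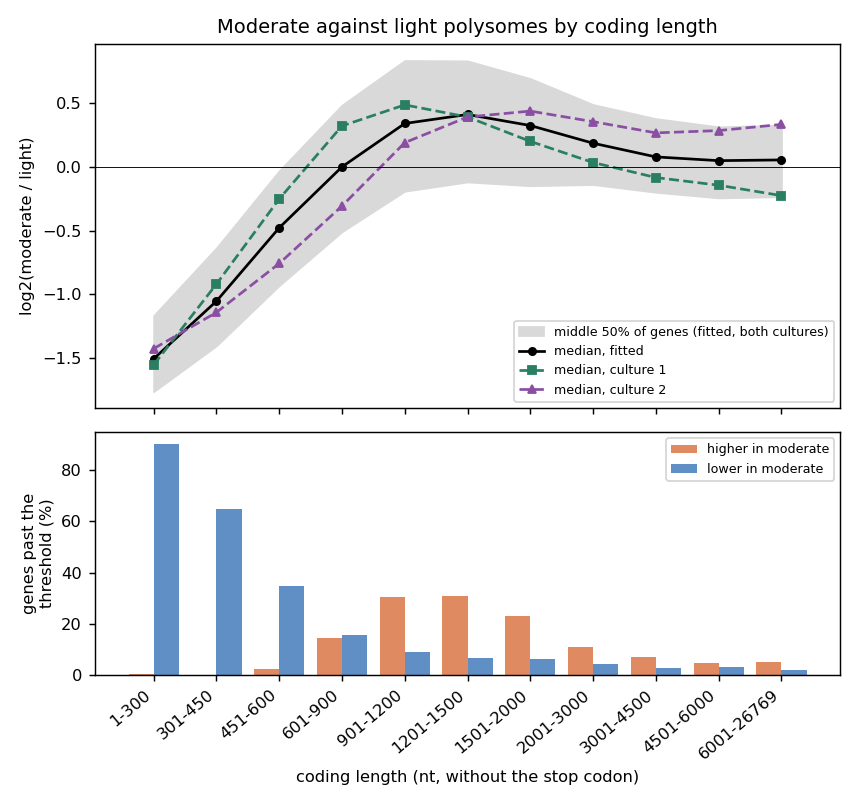
Upper panel, log2(moderate / light) by coding length in nt, with the median and the middle 50% of genes fitted over both cultures and the median in each culture. Lower panel, percentage of genes in each class that were higher or lower in the moderate pool. The median climbs from -1.51 at up to 300 nt to 0.41 at 1201 to 1500 nt, and the cultures have opposite signs at 601 to 900 nt (0.32 in culture 1, -0.31 in culture 2) and above 3000 nt, where culture 1 is below 0 and culture 2 above it.

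The moderate pool was also set beside the heavy polysome and total mRNA libraries of the same cultures. Levels in this and the next paragraph were scaled by TMM over the 8 shNSi libraries. In culture 1 the highest pool was heavy for 6476 genes, light for 5214 and moderate for 3408, and in culture 2 it was heavy for 5695, light for 6301 and moderate for 3102. The share of genes with their highest level in the moderate pool of cultures 1 and 2 was 2.41% and 0.803% at up to 300 nt, 59.0% and 36% at 601 to 900 nt, 38.4% and 49.2% at 901 to 1200 nt, 12.2% and 18.1% at 1501 to 2000 nt and 1.75% and 0.292% over 6000 nt. At 601 to 900 nt the pool most often highest was thus the moderate pool in culture 1 and the light pool, with 60.6%, in culture 2. Light was the highest pool for 96.8% and 98.0% of the genes of up to 300 nt, and heavy for 89.2% and 95.9% of those over 6000 nt. Relative to total mRNA, shorter coding sequences were favoured in the light pools, with a rho of -0.529 and -0.640, and longer ones in the heavy pools, with 0.509 and 0.712. The moderate pool of culture 1 had -0.545, slightly below the -0.529 of its own light pool, and that of culture 2 had -0.136, between its light and heavy pools.

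Single genes showed these places along the gradient. RPL41 fell from 1403 and 798 CPM in light to 230 and 281 CPM in moderate and 201 and 256 CPM in heavy polysomes, with 953 and 988 CPM in total mRNA. PDHA1 went the other way, from 19.3 and 53.2 CPM in light through 70.0 and 177 CPM in moderate to 207 and 193 CPM in heavy polysomes. ITGB1, the integrin beta 1 subunit with a coding length of 2394 nt, went from 124 and 122 CPM through 218 and 329 CPM to 1003 and 1595 CPM. The share of RPL41 was thus highest in the light pool, and those of PDHA1 and ITGB1 in the heavy pool. RSL24D1, a ribosome assembly factor of 489 nt, was highest in the moderate pool in both cultures, with 85.5 and 117 CPM in light, 214 and 232 CPM in moderate and 137 and 99.5 CPM in heavy polysomes. EIF4G2, which encodes DAP5 itself, had 1442 and 1475 CPM in light, 2326 and 1698 CPM in moderate and 1425 and 1308 CPM in heavy polysomes. Its moderate-to-light difference of 0.37 did not pass the threshold (adjusted p = 0.503).

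**Figure D4:**
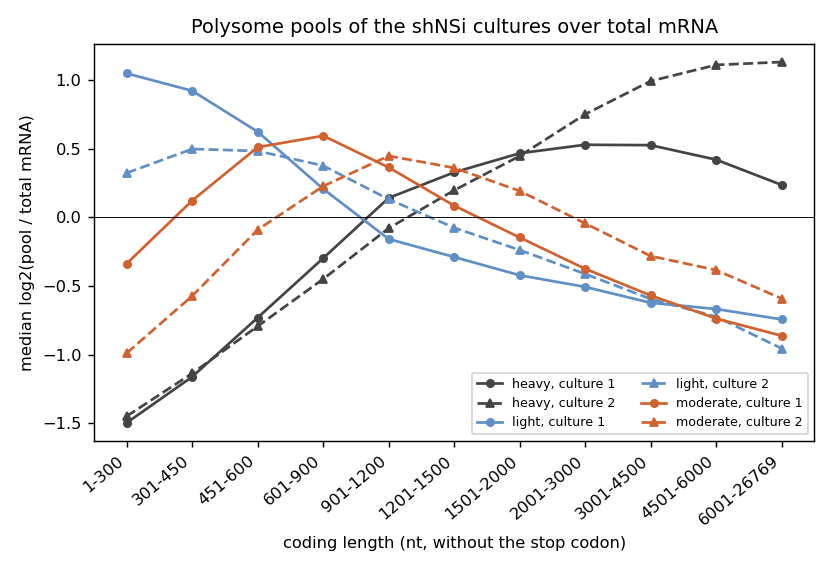
Median log2(pool / total mRNA of the same culture) by coding length in nt for the light, moderate and heavy polysome pools of shNSi culture 1 (solid, circles) and culture 2 (dashed, triangles). Heavy pools rise with length up to at least 2000 nt, light pools fall from 451 to 600 nt onward, and the moderate pools are highest in between, at 601 to 900 nt in culture 1 and at 901 to 1200 nt in culture 2.

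The translation machinery had members in both directions. Of 79 mRNAs of cytosolic ribosomal proteins, 29 (36.7%) were lower and 5 (6.33%) higher in the moderate pool, with a median of -0.64 and a median coding length of 453 nt. Of all genes 18.3% were lower. By length class 90.4% were lower at up to 300 nt, 64.7% at 301 to 450 nt and 34.9% at 451 to 600 nt. The list median lies at the lower border of the class with 34.9%, so shorter members belong to classes with larger shares. The lowest after RPL41 was RPS29, of 168 nt, with 1030 and 523 CPM in light and 154 and 203 CPM in moderate polysomes (log2 difference of -2.05, adjusted p = 5.67e-06). The highest was RPL5, of 891 nt, which binds the 5S rRNA, with 865 and 1501 CPM in light and 2030 and 3927 CPM in moderate polysomes (1.31, adjusted p = 0.00800). RPL15, of 612 nt, followed with 1.12. RPL5 missed the threshold without culture 2 (adjusted p = 0.0713) and RPL15 without culture 1 (0.129), and RPS29 missed it with the offset for coding length (0.585). Against the curve of the difference on coding length, these mRNAs lay on the other side: the median distance from the curve was 0.17 and 31 of 79 were below it. Ribosomal protein genes have many processed copies in the genome, so that their counts depend on how such reads were assigned.

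Elongation factors and other mRNAs with a terminal oligopyrimidine tract at the 5′ end, by which growth signals control their translation, had 10 of 20 members (50%, against 14.8% of all genes) higher, 0 lower and a median of 0.86. LDHB led them, followed by EIF3E, a subunit of the initiation factor eIF3, with 169 and 226 CPM in light and 335 and 709 CPM in moderate polysomes (1.32). PABPC1, the cytoplasmic poly(A)-binding protein, had 1168 and 1140 CPM in light and 1051 and 770 CPM in moderate polysomes, a difference of -0.36 that did not pass the threshold, though it did with the offset for coding length (-0.73, adjusted p = 0.0179). Of 35 initiation factors, 12 (34.3%) were higher and 5 (14.3%) lower, with a median of 0.50. EIF2S1, the alpha subunit of eIF2, had 92.1 and 216 CPM in light and 255 and 542 CPM in moderate polysomes (1.40, adjusted p = 0.000702), and EIF3I had a difference of 1.39. The small factors were at the other end, with -1.61 for EIF4EBP1, the eIF4E-binding repressor 4E-BP1 of 354 nt, and -1.47 for EIF1, of 339 nt, which missed the threshold with the offset (adjusted p = 0.118). Of 20 cytosolic aminoacyl-tRNA synthetases, which charge tRNAs, 7 (35%) were higher and 0 lower, led by YARS (1.29) and DARS (1.27), and the median of 0.47 was 0.76 without culture 1 and 0.16 without culture 2. EIF3E and DARS missed the threshold without culture 2 (adjusted p = 0.0505 and 0.0628). Initiation factors, elongation factors and synthetases were higher mainly among coding lengths of 901 to 2000 nt, where 10 of 16, 9 of 14 and 7 of 10 were called, against 28.0% of all 5429 genes of these lengths.

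Proteasome subunits, which form the protease that degrades ubiquitin-tagged proteins, were mostly higher. Of 37 subunits, 25 (67.6%, against 14.8% of all genes) were higher in the moderate pool and 0 lower, 12 did not pass the threshold, and 36 of 37 had a difference above 0, with a median of 1.09. PSMC6, an ATPase of the regulatory particle, had 56.5 and 109 CPM in light and 171 and 307 CPM in moderate polysomes (1.55 ± 0.32 SE, adjusted p = 3.26e-05). PSMD12, of its lid, had 46.9 and 81.7 CPM in light and 116 and 271 CPM in moderate polysomes (1.52, adjusted p = 2.53e-05). In both genes the moderate pools lay above both light pools. PSMD9, an assembly chaperone, was the exception in sign, with 64.5 and 70.9 CPM in light and 52.9 and 38.0 CPM in moderate polysomes (-0.59, adjusted p = 0.102), and passed the threshold with library size alone (adjusted p = 0.0439), by limma (0.0445) and with the offset for coding length (0.0395). The subunits had a median coding length of 831 nt and a median distance of 0.96 above the length curve. The medians differed between cultures, with 1.33 in culture 1 and 0.65 in culture 2, and the fit without culture 1 gave 0.67.

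Of 18 genes of glycolysis and glucose uptake, 13 (72.2%, against 14.8% of all genes) were higher and 0 lower, and 5 did not pass the threshold, for a median of 0.93. PGAM1, phosphoglycerate mutase, had 44.5 and 80.5 CPM in light and 172 and 194 CPM in moderate polysomes (1.60, adjusted p = 8.43e-06). GAPDH had 1839 and 4267 CPM in light and 5254 and 11860 CPM in moderate polysomes, a 2.82-fold higher share (adjusted p = 0.00444), and PFKP, a phosphofructokinase of 2352 nt, had a difference of 0.41 (adjusted p = 0.343). Of 13 actins and tubulins, 9 (69.2%) were higher and 0 lower, and 4 did not pass, with a median of 1.11. ACTB, beta actin, had 2064 and 5539 CPM in light and 7263 and 11100 CPM in moderate polysomes (1.41, adjusted p = 0.00834). ACTG1, gamma actin, and TUBG1, gamma tubulin, were the highest, with 2.82-fold and 2.68-fold higher shares, and TUBB6 had 0.84 with an adjusted p of 0.0531. VIM, vimentin, an intermediate filament protein named here after its values were seen, had 1130 and 2130 CPM in light and 2027 and 5038 CPM in moderate polysomes (1.04, adjusted p = 0.0399). ACTB missed the threshold without culture 1 (adjusted p = 0.113) and by limma on quantile-normalized values (0.0631), GAPDH with culture 1 or culture 2 left out (0.0504 and 0.0534), and VIM likewise (0.0566 and 0.196), with library size alone (0.0835) and with the offset for coding length (0.0611). TUBB6 passed it by DESeq2 (0.0141), by limma (0.0498) and without culture 1 (0.0446).

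Mitochondrial proteins made in the cytosol differed with the length of their coding sequence. Of 77 nuclear-encoded subunits of the respiratory chain and ATP synthase, 33 (42.9%) were lower and 10 (13%) higher, with a median of -0.58 and a median coding length of 423 nt. The subunits ATP5C1 (891 nt) and ATP5B (1587 nt) of the F1 part of ATP synthase were the highest, with 1.49 and 1.38, and the small membrane subunits ATP5J2 (264 nt) and ATP5I (207 nt) the lowest, with -2.04 and -2.02. ATP5B had 241 and 512 CPM in light and 614 and 1360 CPM in moderate polysomes, and ATP5J2 had 241 and 152 CPM in light and 54.0 and 39.8 CPM in moderate polysomes. Of 79 mitochondrial ribosomal proteins, 23 (29.1%) were higher and 18 (22.8%) lower, against 14.8% and 18.3% of all genes. Their median of 0.17 was -0.02 when the values were quantile normalized, 0.016 without culture 1 and 0.33 without culture 2. MRPL39 (1014 nt) had 1.62 and MRPL19 (876 nt) 1.58, whereas MRPL33 (195 nt) had -1.47 and MRPS6 (375 nt) -1.43. With the offset for coding length, ATP5I (adjusted p = 0.138) did not pass the threshold, and MRPL33 did not either and had the opposite sign (0.20, adjusted p = 0.534). Both lists lay mostly above the length curve, by a median of 0.30 for the respiratory chain (21 of 77 below it) and of 0.49 for mitochondrial ribosomal proteins (16 of 79 below it). At 901 to 2000 nt, 8 of 10 and 12 of 17 were higher, against 28.0% of all genes of these lengths. Messages encoded by mitochondrial DNA were not analysed here.

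Of 19 chaperones and stress sensors of the endoplasmic reticulum, 9 (47.4%, against 14.8% of all genes) were higher and 0 lower, with a median of 0.78 over both cultures, 0.41 in culture 1 and 0.92 in culture 2, and of 0.39 in the fit without culture 2. PDIA6, a protein disulfide isomerase, had 70.2 and 119 CPM in light and 156 and 358 CPM in moderate polysomes (1.37, adjusted p = 0.000308), and DNAJB11 had 1.08. SDF2L1 (-0.65, adjusted p = 0.0663) and XBP1 (-0.36, adjusted p = 0.353), the transcription factor of the unfolded protein response, were the lowest. SDF2L1 passed the threshold as lower with library size alone (adjusted p = 0.0248), by limma (0.0407), with at least 10 counts in every library (0.0458) and with the offset for coding length (0.0234). Of 15 heat shock proteins and their factor HSF1, 4 (26.7%) were higher and 0 lower, with DNAJA1 at 1.35 and HSPD1, the mitochondrial chaperonin, at 1.17. HSPE1, the 306 nt partner of HSPD1, had 281 and 269 CPM in light and 187 and 165 CPM in moderate polysomes, a difference of -0.65 that did not pass the threshold (adjusted p = 0.118), though it did by limma on quantile-normalized values (-0.81, adjusted p = 0.0226), and with the offset it had the opposite sign (0.46, adjusted p = 0.143). HSPD1 missed the threshold without culture 2 (adjusted p = 0.0742).

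Cell cycle and replication genes had members in both directions. Of 25 cyclins, cyclin-dependent kinases and their inhibitors, 10 (40%) were higher and 1 (4%) lower, against 16.9% and 13.3% of protein-coding genes, with a median of 0.60. CDK1, the mitotic kinase, had 94.4 and 332 CPM in light and 367 and 631 CPM in moderate polysomes (1.44, adjusted p = 0.000834), and CCND1, cyclin D1, had 1.25. The gene that was lower was CDKN1A, the inhibitor p21 of 492 nt, with 101 and 100.5 CPM in light and 70.2 and 40.7 CPM in moderate polysomes (-0.92, adjusted p = 0.00832). Without culture 1, CCND1 missed the threshold (adjusted p = 0.0527), and CDKN1A did without culture 2 (0.159) and with the offset for coding length (0.108). Of 41 genes of the replication machinery, 9 (22%) were higher and 4 (9.76%) lower, against 16.9% and 13.3% of protein-coding genes, and their median of 0.40 was 0.12 without culture 2. RFC3 (1.61), of the clamp loader, and the nuclease FEN1 (1.45) were the highest, and POLE4 (351 nt, -1.82) and RPA3 (363 nt, -1.31), the smallest subunits of their complexes, the lowest. RPA3 missed the threshold with the offset (adjusted p = 0.141).

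Most histone mRNAs that are made with replication were lower. Of 28 tested, 22 (78.6%, against 18.3% of all genes) were lower, 0 higher and 6 did not pass the threshold. All 28 had a difference below 0, and the median was -1.44, or -0.49 by limma on quantile-normalized values. HIST1H2BK had 88.6 and 30.0 CPM in light and 30.2 and 7.67 CPM in moderate polysomes (-1.75, adjusted p = 7.38e-07). The light pool of culture 2 did not exceed the moderate pool of culture 1, so the pools overlapped across cultures while each culture went down. HIST1H1C (-1.05) and HIST1H2AC (-1.11), the other histone genes with a mean of at least 10 CPM, also passed the threshold, though not without culture 2 (adjusted p = 0.256 and 0.107), and HIST1H2AC did not with the offset for coding length (0.304). At a median coding length of 378 nt the group still lay below the length curve, by a median of -0.50. These mRNAs have a stem loop in place of a poly(A) tail, and whether the libraries were selected for poly(A) is not given in the sources used here.

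Most mRNAs of the stress response and polyamine lists lay below the length curve. Of 12 mRNAs with upstream open reading frames that are translated in the integrated stress response, 4 (33.3%, against 18.3% of all genes) were lower and 0 higher. Their median was -0.27 over both cultures, with -0.51 in culture 1 and -0.26 in culture 2, and -0.54 in the fit without culture 2. Of the 12, 11 lay below the length curve, and the median distance was -0.54. ATF4, the transcription factor of this response with a coding length of 1053 nt, had 1471 and 957 CPM in light and 611 and 342 CPM in moderate polysomes (-1.38 ± 0.39 SE, adjusted p = 0.00275). DDIT3, the factor CHOP, had 178 and 93.6 CPM in light and 57.8 and 33.2 CPM in moderate polysomes (-1.56, adjusted p = 6.63e-06). ATF4 thus had a distance of -1.68 from mRNAs of its length, of which genes of 901 to 1200 nt had a median of 0.34. Of 8 genes of polyamine metabolism whose translation is controlled, 3 (37.5%) were lower and 0 higher, and 8 of 8 lay below the curve. SAT1, the acetyltransferase that starts polyamine breakdown, had -1.51, and OAZ1, the antizyme made by a polyamine-dependent frameshift, had 1464 and 1220 CPM in light and 620 and 437 CPM in moderate polysomes (-1.36, adjusted p = 0.00332).

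Of 9 mRNAs with an iron-responsive element, which iron regulatory proteins bind, 1 (11.1%, against 18.3% of all genes) was lower and 0 higher. FTH1, the ferritin heavy chain with the element ahead of its coding sequence, had 2858 and 5042 CPM in light and 1076 and 2289 CPM in moderate polysomes (-1.27 ± 0.42 SE, adjusted p = 0.0115), and missed the threshold without culture 1 (adjusted p = 0.0861). FTL, the light chain, had 3413 and 8423 CPM in light and 1659 and 4830 CPM in moderate polysomes (-0.92, adjusted p = 0.0828), and passed the threshold by DESeq2 (0.00982), by limma (0.00307) and with at least 10 counts in every library (0.0472). TFRC, the transferrin receptor with its elements behind the coding sequence, had a difference of 0.55 (adjusted p = 0.174). The median of the list, 0.06, changed sign with the scaling, to -0.07 with library size alone and -0.10 after quantile normalization.

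Integrins, laminins, collagens and motor proteins, with median coding lengths of 3153 to 5421 nt, had medians that differed between cultures. Against 14.8% higher and 18.3% lower over all genes, integrin subunits had 3 (20%) higher and 1 (6.67%) lower of 15, laminin chains 1 and 0 of 10, collagen chains 5 (20.8%) and 0 of 24, and kinesins, myosins and dyneins 6 (9.23%) and 3 (4.62%) of 65. Of all genes of 3001 to 4500 nt, 6.83% were higher and 2.75% lower. Median differences in culture 1 and culture 2 were 0.01 and 0.51 for integrins, -0.23 and 0.40 for laminins, 0.09 and 0.79 for collagens (0.82 in the fit without culture 1 and 0.062 in that without culture 2) and -0.06 and 0.44 for the motor proteins. ITGB1 had 140 and 133 CPM in light and 235 and 342 CPM in moderate polysomes (1.05, adjusted p = 0.00816), and ITGAV had 0.85. Among members with a mean of at least 10 CPM, COL4A1 (0.91, and 0.25 without culture 2) and COL6A2 (0.88, and 0.61 without culture 2) were the highest collagens. The highest motor genes among such members were the dynein light intermediate chains DYNC1LI2 (1.16) and DYNC1LI1 (1.07), of 1476 and 1569 nt, below the list median of 3951 nt. Without culture 2, ITGB1, ITGAV, COL4A1, COL6A2 and DYNC1LI2 lost their call (adjusted p = 0.190, 0.40, 0.622, 0.166 and 0.0798), and ITGAV lost it without culture 1 (0.173) and in the fit of all 14 libraries (0.0507) as well. Of 82 chromatin modifiers and remodelers, 9 (11.0%) were higher and 0 lower, led by HDAC2 (1.15) and SMARCB1 (1.11), of which SMARCB1 missed the threshold without culture 1 (adjusted p = 0.0608). Their median of 0.10 fell to -0.03 with library size alone.

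Zinc finger transcription factors stood apart from other mRNAs of their length. Of 447 genes with a ZNF symbol, 94 (21.0%, near the 18.3% of all genes) were lower and 9 (2.01%, against 14.8%) higher, with a median of -0.41 over both cultures, -0.40 in culture 1 and -0.39 in culture 2, and of -0.24 by limma on quantile-normalized values. Of the 436 with a coding length, whose median was 1722 nt, 386 lay below the length curve, by a median of -0.60. Among coding lengths of 901 to 2000 nt, 57 of 285 were lower and 5 higher, against 7.20% and 28.0% of all 5429 genes. ZNF32 had 37.9 and 25.8 CPM in light and 12.8 and 8.93 CPM in moderate polysomes (-1.55, adjusted p = 3.53e-06), and ZNF271P, a pseudogene by its annotation, had -1.55. ZNF207, a spindle assembly protein, was the highest, with 44.4 and 69.7 CPM in light and 91.0 and 192 CPM in moderate polysomes (1.25), followed by ZNF316 (0.97), which missed the threshold without culture 2 (adjusted p = 0.0865). Zinc finger genes are a family of close copies, and the assignment of reads between them is not given in the sources used here.

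Long noncoding RNAs were mostly lower in the moderate pool. Of 609 long intergenic, antisense, processed transcript and related noncoding genes, 391 (64.2%) were lower and 5 (0.821%) higher, with a median of -1.19. The share that was lower was 66.8% of 256 long intergenic RNAs, 60.2% of 266 antisense RNAs and 72.0% of 75 processed transcripts. Of 23 host transcripts of small nucleolar RNAs, whose spliced exons are known to be degraded after contact with ribosomes, 22 were lower and 0 higher, with a median of -1.61. GAS5 had 624 and 401 CPM in light and 134 and 113 CPM in moderate polysomes (-2.02 ± 0.36 SE, adjusted p = 1.77e-06), and ZFAS1 had 402 and 213 CPM in light and 68.5 and 72.6 CPM in moderate polysomes (-2.05, adjusted p = 1.87e-07). Both moderate libraries lay under both light libraries for these genes. SNHG17 (-1.17) and SNHG3 (-1.03) were the highest among hosts with a mean of at least 10 CPM. NEAT1, the scaffold of nuclear paraspeckles, had 36.1 and 49.4 CPM in light and 20.1 and 35.8 CPM in moderate polysomes (-0.65, adjusted p = 0.0683). NEAT1 passed the threshold with library size alone (adjusted p = 0.0264), by limma (0.0368) and with at least 10 counts in every library (0.0469), and 2 of 6 nuclear noncoding RNAs passed the threshold, both lower. Protein-coding genes had 16.9% higher and 13.3% lower of 12548. The 350 processed pseudogenes were closer to these, with 14.3% higher and 20.6% lower and a median of -0.09, and of 33 unprocessed pseudogenes 42.4% were lower. Without culture 2, SNHG3 and SNHG17 missed the threshold (adjusted p = 0.0838 and 0.0503). Antisense genes share sequence with their partners, and whether the counting used strand is not stated in the sources used here.

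**Figure D5:**
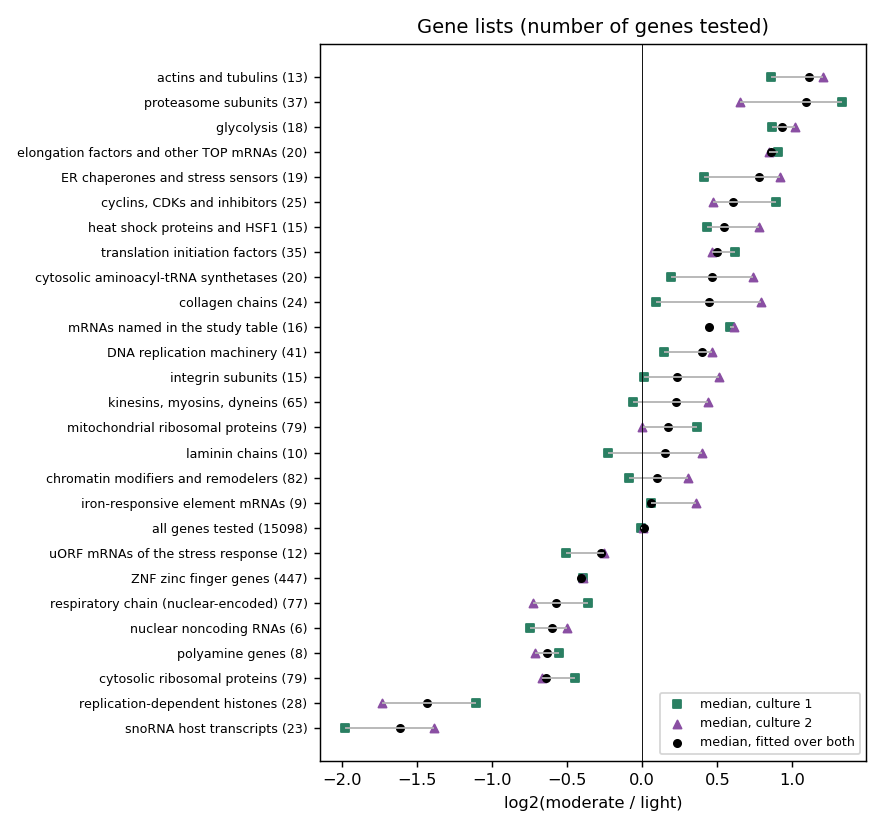
Median log2(moderate / light) of each gene list in culture 1 (squares), culture 2 (triangles) and fitted over both (circles), with the number of genes tested in parentheses. By the fitted medians, actins and tubulins and the proteasome lie highest, above 1, and snoRNA hosts and histones lowest, below -1, whereas the proteasome has 0.65 in culture 2, where glycolysis has 1.02. Iron-responsive element mRNAs and chromatin genes change sign with library size alone, and mitochondrial ribosomal proteins with quantile normalization.

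Genes farthest from the length curve were picked among those with a mean of at least 10 CPM. On the low side were AP1M2, a clathrin adaptor subunit, with 187 and 63.2 CPM in light and 39.3 and 21.7 CPM in moderate polysomes, ITGAE, with 60.5 and 35.01 CPM against 11.96 and 11.2 CPM, and the kinesin KIF9, with 21.6 and 11.9 CPM against 5.75 and 3.44 CPM. Their distances from the curve were -2.26, -2.09 and -2.04. ITGAE and KIF9 have long coding sequences, of 3537 and 2370 nt, and differences of -1.99 and -1.85, below the median of the shortest class. In GENCODE v29 each of them overlaps 3 other genes, HASPIN and a pair of antisense genes for ITGAE and KLHL18, KIF9-AS1 and a snoRNA gene for KIF9, and except for the snoRNA gene these lie on the opposite strand. Whether the counting used strand is not stated in the sources used here. AP1M2 overlaps 0 genes, and CHTF8, on the other side of the curve, overlaps the protein-coding genes HAS3 and UTP4, both on the opposite strand. On the high side were CHTF8 (363 nt, distance of 1.68), RSL24D1 (489 nt, 1.68) and HLA-DRA (762 nt, 1.67). CHTF8 had 120 and 162 CPM in light and 193 and 252 CPM in moderate polysomes (0.66, adjusted p = 0.0946), and passed the threshold with the offset for coding length (1.55).

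The study names 16 mRNAs as those most strongly reduced in polysomes after DAP5 silencing, a list that was chosen on these cultures. In the shNSi pools 5 of 16 (31.2%, against 14.8% of all genes) were higher in the moderate pool and 0 lower, with a median of 0.45 that was 0.24 for members with at least 10 counts in every library. SERPINE2, a protease inhibitor, had 30.6 and 65.9 CPM in light and 78.6 and 162 CPM in moderate polysomes (1.33, adjusted p = 0.000112). MMP1, a collagenase, had 41.3 and 122 CPM in light and 81.4 and 359 CPM in moderate polysomes (1.27, adjusted p = 0.000629), and its light pool in culture 2 lay above its moderate pool in culture 1. The transcription factor ETS1 (1.05), the metalloproteinase MMP3 (0.86) and ITGAV (0.85) also passed the threshold. Differences of the other 11 did not pass it and were between -0.13 and 0.61. Without culture 2, ETS1 missed the threshold (adjusted p = 0.0724), and MMP3 missed it with culture 1 or culture 2 left out (0.137 and 0.207) and by DESeq2 (0.0921), with library size alone (0.0642) and with the offset for coding length (0.297). ETS1 also missed it with the offset (0.0618). Among the 7 with a coding length of 901 to 2000 nt, 4 (57.1%, against 28.0% of all genes of these lengths) were higher, and the median of all 16 coding lengths was 3040.5 nt.

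The shDAP5 cultures share no library with this comparison and offered heavy against light polysomes. Their light libraries are titled light but carry the code that the shNSi moderate pool has, and the title was followed here. Of the 2227 genes higher in the moderate pool of shNSi cells, 2179 (97.8%) had a higher level in heavy than in light polysomes of both shDAP5 cultures, with medians of 1.27 and 1.37 on the log2 scale. Of the 2758 that were lower, 2642 (95.8%) were lower in heavy polysomes of both, with medians of -1.26 and -1.15. Of the 10113 genes that did not pass the threshold, 44.5% were above 0 and 28.9% below 0 in both. RPL41 had heavy-to-light differences of -2.09 and -2.58 in the 2 shDAP5 cultures, GAS5 of -2.08 and -1.86, ATF4 of -1.20 and -1.09, PSMC6 of 1.75 and 1.62, and PDHA1 of 2.41 and 2.71. These genes kept the sign they had between the moderate and light pools of the shNSi cells. Proteasome subunits had medians of 1.28 and 1.62, and snoRNA hosts of -1.76 and -1.76.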

How the data were processed

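The authors deposited whole-number read counts per gene symbol for 14 libraries, without normalization. Per the labels, the submitters' processing notes name STAR 2.6.0a, limma and hg19. The deposited table is titled as featureCounts output and as rev, a mark that may refer to strand and is not explained. The annotation and the other counting options are not given in the sources used here. The total count of the 4 libraries compared was at least 25899838, and depth limits mainly the genes near the minimum of 10 counts. Symbols were matched to GENCODE v29 (GRCh38), 37621 by name and 523 by an older symbol. In all, 27 symbols had been turned into dates and are not named.

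Genes with at least 10 counts in 2 or more of the 4 libraries were scaled by TMM, and edgeR 4.0.16 in R 4.3.3 gave a robust quasi-likelihood test with a term for culture, since the same number and code in the labels mark the pools of 1 culture. Correlated deviations (r = 0.647) were found between these pools. Adjustment followed Benjamini and Hochberg over 15098 genes, at a threshold of 0.05. The fit had 1 residual degree of freedom, and the prior degrees of freedom were infinite for 94.6% of genes. The study describes its data as sets performed independently. The p-values rest on the spread that remains after the term for culture, which for most genes was shared across genes and was not their own. The test was checked on simulated data.

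The length curve was a loess fit (span of 0.4) of the difference on coding length. Coding length was that of the principal isoform. Lists and length classes are described by counts and medians, without tests. The members and lists were chosen with earlier results of these data known. Named genes were EIF4G2, ACTB and GAPDH, the 12 highest and 12 lowest differences among called genes with a mean of at least 10 CPM and 1 sign, the 2 highest and 2 lowest of each list, the mRNAs of the study's table, and the 3 genes farthest from the length curve on each side. Most list members of this rule that missed the threshold are left unnamed. Some genes are not reported here. Alternatives were DESeq2 1.42.0, library size, limma 3.58.1 on quantile-normalized log2 of CPM plus 1, other filters and thresholds, no term for culture, all 14 libraries in 1 fit, a fit without robust estimation, an offset for coding length, and each culture left out.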

Additional observations from a re-analysis of the deposited data

How the results depend on the processing

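The count of 4985 genes changed with the design more than with the tool. Without the replicate block for culture, edgeR called 0 genes, 0 higher and 0 lower, and 0 of the 96 named genes that had passed the threshold, whereas no named called gene changed sign. With each culture left out in turn, in a fit of the remaining libraries in which the lone sample of a pool is assumed to vary like the others, 2767 to 3145 genes were called, 1269 to 1486 of them higher and 1498 to 1659 lower. Without culture 1, 3145 were called, and without culture 2, 2767. At an adjusted p of 0.01, 3048 genes were called, 1185 of them higher. DESeq2 called 3718 genes, 1819 of them lower, and gave no adjusted p for 1464. An offset for coding length, with the replicate block, called 3903 of 12544 genes, 1370 of them higher, and 124 of the genes called without it changed sign. Counts of calls moved by no more than 1.5 times under library size alone, quantile normalization with limma, the 3 other filters, the fit of 14 libraries and the fit without robust estimation. Of the 96 named called genes, at least 94 kept their call under these and under DESeq2, 87 without culture 1, 77 without culture 2, and 72 of the 90 with a coding length under the offset, where 3 changed sign.

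Of 26 lists, 18 kept the sign of their median under the alternatives run for them, which leave out the coding length offset for snoRNA hosts and nuclear noncoding RNAs. With the coding length offset, the median became 0.040 for cytosolic ribosomal proteins, 0.15 for the respiratory chain, -0.050 for integrins, -0.031 for laminins, -0.25 for iron-responsive element mRNAs and -0.12 for chromatin genes, and the difference became 0.18 for OST4, 0.69 for RPL41, which then passed as higher (adjusted p = 0.0253), 0.20 for MRPL33 and 0.46 for HSPE1. With each culture left out, the median ran from -0.014 to 0.58 for integrins, -0.26 to 0.42 for laminins, -0.092 to 0.46 for motor proteins and -0.11 to 0.32 for chromatin genes, the lower value being that without culture 2. Quantile normalization with limma gave -0.016 for mitochondrial ribosomal proteins and -0.098 for iron-responsive element mRNAs, library size alone gave -0.066 for the latter and -0.028 for chromatin genes, and at least 10 counts in every library gave -0.015 for iron-responsive element mRNAs. Without a change of sign, the offset gave medians of -0.66 for histones, 0.24 for initiation factors, 0.59 for glycolysis, 0.64 for actins and tubulins, 0.40 for endoplasmic reticulum chaperones, 0.079 for the replication machinery, -0.72 for ZNF genes, -0.66 for stress response mRNAs, 0.12 for the mRNAs named in the study, 0.11 for synthetases, 0.29 for collagens, 0.021 for motor proteins, 0.35 for mitochondrial ribosomal proteins, 0.35 for cyclins and 0.33 for heat shock proteins. Nuclear noncoding RNAs had -0.34 by limma and -0.92 without culture 2, and iron-responsive element mRNAs had 0.38 without culture 1. The offset removes the length course by its construction, and for RPL41 and OST4 it rests on the short end of the fitted curve. For the other changes the cause was not tested. Each pool had 2 cultures, which limits every value.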

Other observations

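Among mRNAs that encode selenoproteins, in which a UGA codon is read as selenocysteine, several of the abundant ones were lower in the moderate pool. This group was examined after the values of GPX1 were seen, so its counts are a description. Of 19 genes with a selenocysteine tag in GENCODE v29, 9 (47.4%, against 18.3% of all genes) were lower and 2 (10.5%, against 14.8%) higher, with a median difference of -0.37 and a median coding length of 634.5 nt, near lengths at which 15.7% to 34.9% of genes were lower, and 12 of the 18 with a coding length lay below the length curve. GPX1, a glutathione peroxidase, had 1382 and 712 CPM in light and 278 and 208 CPM in moderate polysomes (-2.04, adjusted p = 6.49e-06). GPX4, which reduces lipid peroxides, had 848 and 578 CPM in light and 260 and 182 CPM in moderate polysomes (-1.68, adjusted p = 0.000119), at a distance of -1.35 from mRNAs of its length. SELENOW, of 261 nt, had 77.5 and 30.9 CPM in light and 14.7 and 11.9 CPM in moderate polysomes (-1.89). TXNRD1, thioredoxin reductase, was higher, with 451 and 606 CPM in light and 965 and 1184 CPM in moderate polysomes (1.03, adjusted p = 0.0251).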
